A study of Mus musculus with 89 samples.

Results

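The genes described here are 9 immediate early genes, *Jun*, *Junb*, *Jund*, *Fos*, *Fosb*, *Atf3*, *Egr1*, *Ier2* and *Klf6*. They were taken by name, and all 9 are among the 21817 genes named in both count tables of the study (29100 genes in either table). The tables hold unique molecular identifiers (UMIs, 1 for each captured mRNA molecule) from the epithelium of the mouse jejunum, sequenced by MARS-seq in multi-well plates. One table holds incompletely dissociated clumps of cells (45 plates, 6 mice) and the other holds single cells (44 plates, 4 mice). All mice were C57BL/6 males, aged 3 months for 86 plates and 4 months for 3 single-cell plates of mouse 2, and the labels give no genetic alteration and no treatment before death.

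Clumps were sorted by DNA content into pairs (labelled 4n, 27 plates, mice 1 to 5) and larger clumps (labelled h4n, 14 plates, mice 1, 4 and 5). Mouse 6 (labelled h2n, 4 plates) entered no comparison. Both kinds of sample were released with EDTA, but the clump and the single-cell protocols differed in the times in warm and cold EDTA, in shaking, in the strainer mesh and in the viability dye, so these steps cannot be told apart from the difference between clumps and single cells. Mice were numbered separately in the 2 tables, and the mouse was the replicate throughout. Single-cell mouse 2 carries both ages in the labels, so it may hold more than a single animal. The labels do not settle this, and it was counted as a single replicate.

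Immediate early genes are transcribed within minutes of a stimulus, without new protein synthesis, and many of their mRNAs decay quickly. *Jun*, *Junb* and *Jund* encode Jun proteins and *Fos* and *Fosb* encode Fos proteins, which dimerise to form the transcription factor AP-1. *Atf3* is a stress-induced basic leucine zipper factor that can pair with Jun proteins, *Egr1* is a zinc finger factor induced through the MAP kinase cascade and serum response factor, *Klf6* is a zinc finger factor of the Krüppel-like family, and *Ier2* encodes a small nuclear protein. In the gut, growth factors of the EGF family and cell damage are known inducers, and in many tissues enzymatic or mechanical dissociation induces these genes by itself. New enterocytes arise in the crypt and move up the villus until they are shed at its tip, so position in the tissue and the age of a cell go together.

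The promoters of 4 genes on which the results below turn are printed because they carry the kinds of element through which such genes are known to respond. The sequences are the 250 bases before the transcription start given by RefSeq on GRCm38, each read 5′ to 3′ along the gene, with matches to the elements described next in capitals. *Jun* lies at 95049034 to 95052222 on the minus strand of chromosome 4, *Fos* at 85473890 to 85477273 on the plus strand of chromosome 12, *Atf3* at 191170296 to 191218039 on the minus strand of chromosome 1 and *Klf6* at 5861482 to 5870394 on the plus strand of chromosome 13. All are protein-coding genes, and the windows lie upstream of the first exon of the RefSeq transcript. The *Atf3* window precedes a start inside the gene as GENCODE draws it, and the last 7 bases of the *Klf6* window lie in the GENCODE gene.
Jun, chr4:95052223-95052472, minus strand: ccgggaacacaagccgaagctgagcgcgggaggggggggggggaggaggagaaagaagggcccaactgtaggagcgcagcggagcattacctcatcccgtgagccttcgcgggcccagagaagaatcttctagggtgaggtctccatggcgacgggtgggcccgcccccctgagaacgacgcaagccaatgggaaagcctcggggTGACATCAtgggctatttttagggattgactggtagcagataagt
Fos, chr12:85473640-85473889, plus strand: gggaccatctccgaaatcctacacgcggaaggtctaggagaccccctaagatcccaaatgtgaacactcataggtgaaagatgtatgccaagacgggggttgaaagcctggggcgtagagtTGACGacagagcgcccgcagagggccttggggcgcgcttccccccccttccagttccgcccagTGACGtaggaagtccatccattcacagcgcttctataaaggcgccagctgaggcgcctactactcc
Atf3, chr1:191183334-191183583, minus strand: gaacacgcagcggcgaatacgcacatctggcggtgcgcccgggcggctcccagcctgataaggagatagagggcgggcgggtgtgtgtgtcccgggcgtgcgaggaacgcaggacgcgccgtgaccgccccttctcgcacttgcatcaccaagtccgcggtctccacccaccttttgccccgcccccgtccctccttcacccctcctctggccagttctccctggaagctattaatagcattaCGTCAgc
Klf6, chr13:5861239-5861488, plus strand: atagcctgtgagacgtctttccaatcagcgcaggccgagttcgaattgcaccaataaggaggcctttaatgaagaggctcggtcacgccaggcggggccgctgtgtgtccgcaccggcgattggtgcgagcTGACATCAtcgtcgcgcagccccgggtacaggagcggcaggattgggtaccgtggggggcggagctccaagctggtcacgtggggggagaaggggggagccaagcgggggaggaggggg

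RefSeq windows were found for 7 of the 9 genes. The letters TGACATCA (the *Jun*-type variant of the AP-1 and CREB element, looked for after the sequences had been read) stood 45 to 38 bases before the start of *Jun* and 119 to 112 bases before that of *Klf6*, and in 2.93% of 32851 promoter windows of the same length. The letters CGTCA, the core of the cAMP response element, which read TGACG on the other strand, stood in *Fos* at 129 to 125 and at 66 to 62 bases before the start, in *Atf3* at 7 to 3, in *Fosb* at 60 to 56 and in *Junb* at 106 to 102, and in 17.8% of all windows. The full palindrome TGACGTCA (1.55% of all windows, which also contains CGTCA) and the AP-1 site TGACTCA (4.46%) were found in none of the 7 windows. Both strands were searched. A match is a description of letters, and none of these windows was measured in the study.

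The clump table held 38454111 UMIs in 17162 wells (94810 to 4153056 per plate) and single cells gave 39137313 UMIs in 16850 wells (109338 to 2348338 per plate). Wells were placed in the crypt, mid-villus or villus tip by the 64 published enterocyte landmark genes named in both tables. These came from 68 landmarks, 30 of the crypt, 10 of the mid-villus and 28 of the tip. *Klf6* and *Atf3* are published tip landmarks themselves and were left out of the placing, so none of the 9 genes placed a well, but for these 2 genes a higher level at the tip is not independent evidence. On GRCm38, *Fosb* lies at 19302696 to 19310051 on the minus strand of chromosome 7, and chromosome 8 holds *Jund* (70698949 to 70700616, plus strand), *Ier2* (84661331 to 84662852, minus strand) and *Junb* (84974484 to 84978718, minus strand). Values are normalised CPM, UMIs scaled to a library of 1000000 after TMM (a factor per sum that lines up most genes), summed per mouse and zone or cell type. Levels of marker lists, the values given beside mouse 6 and the correlations use CPM over all UMIs instead, without TMM. MARS-seq counts mRNA 3′ ends, so a level does not grow with transcript length. Mouse 4 contributed 22857 of the 26980 UMIs of the 9 genes in crypt clumps, and its level there stood apart for some genes. Wells left empty on the plates were read as the 4 positions of lowest content. They held 8.09% of the 9 genes' UMIs per well of the other positions in the clump table and 2.47% in the single-cell table. By gene the share in the clump table ran from 3.30% for *Jund* (1 UMI) to 27.9% for *Fosb* (5 UMIs).

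Clumps of the villus tip carried more mRNA of 6 of the 9 genes than clumps of the crypt, with *Klf6*, *Jun* and *Atf3* several-fold higher, and the levels of *Egr1* and *Ier2* did not rise with them. Over all 7369 genes tested, 53.2% passed the same threshold (adjusted p under 0.05, edgeR's quasi-likelihood test, 5 mice), 22.3% as higher and 30.8% as lower at the tip, so a called gene was common in this comparison. In clumps, fewer cells of a type and less RNA per cell cannot be told apart.

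*Jun* stood at 16.1, 41.7, 40.4, 115.8 and 39.5 normalised CPM in the crypt clumps of mice 1 to 5, and at 284.7, 534.2, 274.7, 180.2 and 178.8 in their tip clumps. The lowest tip value lay above the highest crypt value, and each mouse rose. The difference was 2.52 ± 0.44 on the log2 scale (SE, 5.75-fold, adjusted p = 7.09e-05, edgeR). *Klf6* stood at 77.2, 68.5, 100.2, 61.6 and 69.2 in the crypt and at 322.3, 483.2, 628.5, 300.3 and 455.2 at the tip. These groups were also fully apart, and *Klf6* had the smallest SE on the log2 scale of the 3 genes that differed most. Its difference was 2.55 ± 0.29 (5.84-fold, adjusted p = 5.33e-07, edgeR).

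*Atf3* was scarce in the crypt of 4 mice and higher in mouse 4, with 4.27, 20.8, 10.2, 75.1 and 9.89 CPM. At the tip it reached 69.8, 309.6, 255.3, 108.1 and 146.3. The ranges touched because the crypt of mouse 4 exceeded the tip of mouse 1, yet each mouse rose on its own scale. The difference was 2.81 ± 0.60 (7.04-fold, adjusted p = 0.000593, edgeR). The calls of *Jun*, *Atf3* and *Klf6* held under every alternative tried in this comparison.

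*Junb*, *Fos* and *Fosb* were higher at the tip by 1.20 ± 0.38, 1.15 ± 0.40 and 1.48 ± 0.57 on the log2 scale (adjusted p = 0.0113, 0.0205 and 0.0346, edgeR). *Fos* had the highest mean of the 9 in the crypt, at 65.7, 223.2, 175.1, 332.6 and 125.2 CPM, against 333.0, 714.5, 541.1, 156.2 and 260.1 at the tip. It was higher at the tip in 4 of 5 mice and lower in mouse 4, so the ranges overlapped widely. These 3 calls were less firm, lost in 5 (*Junb*), 9 (*Fos*) and 8 (*Fosb*) of 18 alternatives. *Fos* was lost with DESeq2 (0.84, adjusted p = 0.0627) and scaled by total UMIs (0.76, 0.136), as was *Fosb* (1.22, 0.0859 with DESeq2, and adjusted p = 0.106 by total UMIs), and all 3 were lost with size factors of DESeq2. *Fos* was no longer called without mouse 1 (1.00, adjusted p = 0.0561), mouse 2 (0.93, 0.0898) or mouse 3 (1.06, 0.0742), *Junb* without mouse 1 (1.16, 0.0505) or mouse 3 (1.22, 0.0593), and *Fosb* without mouse 2 (1.15, 0.200), mouse 3 (1.46, 0.0877) or mouse 5 (1.44, 0.0833). In pairs alone *Junb* differed by 0.38 (adjusted p = 0.508) and *Fos* by 0.73 (adjusted p = 0.246).

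*Jund*, the third Jun gene, differed by 0.76 ± 0.40 (adjusted p = 0.112) and was called only with mouse as a block (0.80, adjusted p = 0.00275). *Egr1* differed by -1.22 ± 0.71 (adjusted p = 0.155). With mouse as a block it was lower at the tip by -0.75 (adjusted p = 0.0280), and in pairs alone by -1.33 (adjusted p = 0.0308). *Ier2* differed by -0.30 (adjusted p = 0.525). Across single plates that held both zones, *Klf6* was higher at the tip on 28 of 30 plates, *Jun* on 27, *Fos* on 25, *Atf3* on 23 and *Egr1* on 6, and plates of 1 mouse are not independent.

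Markers of other cells moved with the zone. The summed level of the 17 goblet markers ranged over 3300 to 7090 CPM in crypt clumps, 3660 to 17000 in mid-villus clumps and 7020 to 29000 in tip clumps, and no goblet marker was at 0. The 14 Paneth markers ranged over 93.5 to 21900 in the crypt and 136 to 1490 at the tip, and the 22 immune markers stayed at or under 425. The part of these cells in the difference was not tested. In pairs of at most 0.5% secretory and immune marker UMIs, which held goblet markers at 0 to 1680 CPM at the tip, *Jun* stood at 308.4, 528.1 and 278.0 in the tip pairs of mice 1 to 3, each above every crypt value of those pairs (highest 52.9), and at 0 and 57.4 in those of mice 4 and 5, which held 5 and 9 wells.

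**Figure D1:**
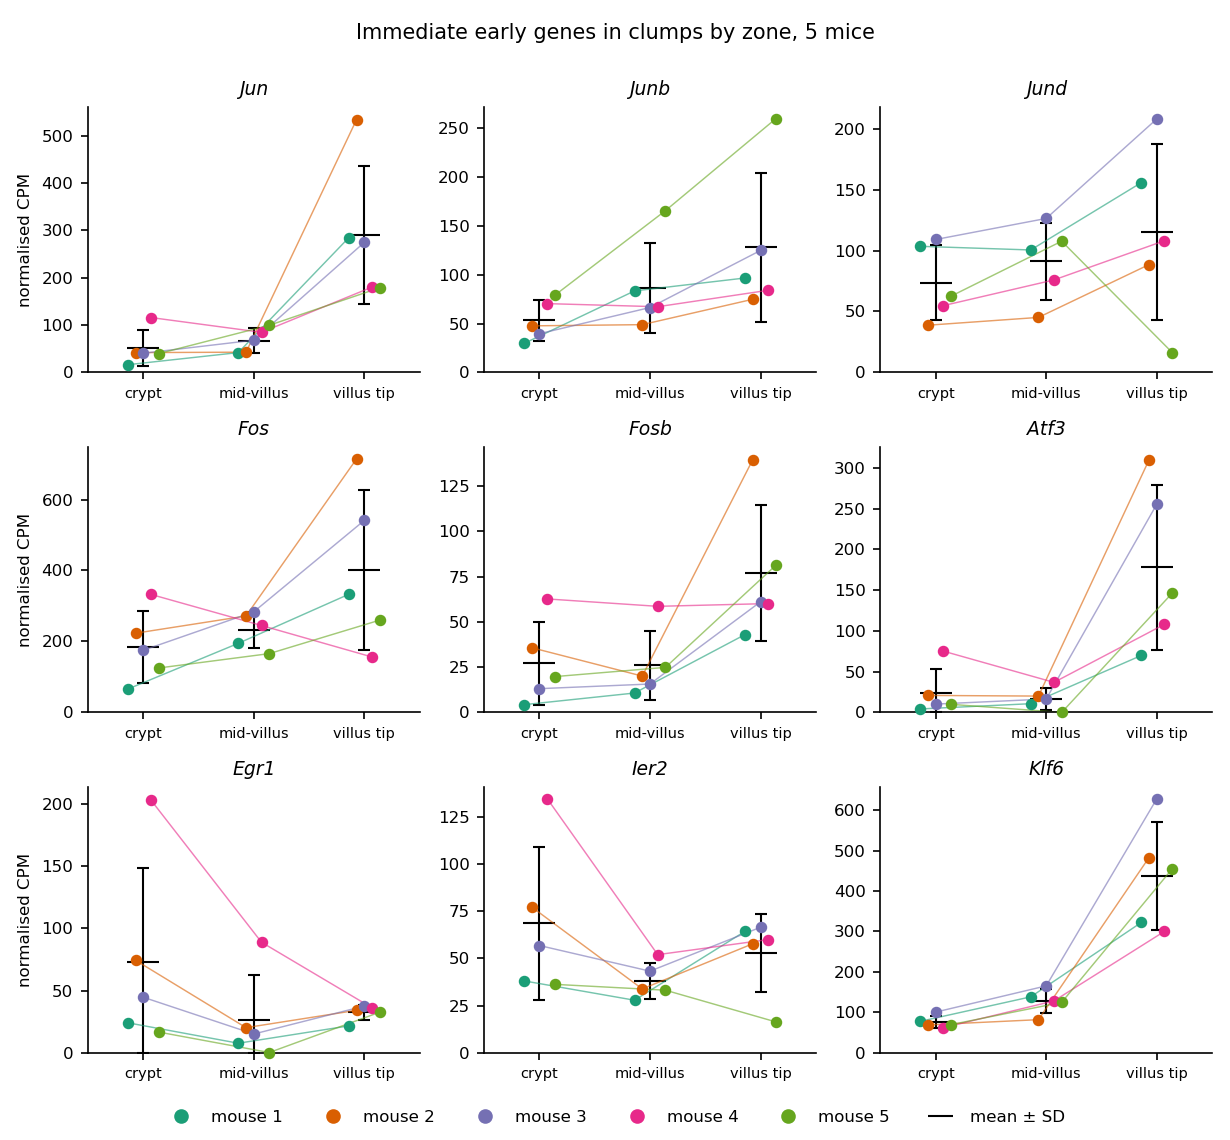
Normalised CPM (vertical axes, linear, from 0) of each gene in crypt, mid-villus and tip clumps, 1 point per mouse joined by lines, with the mean and SD over 5 mice as bars. *Klf6* lies at 61.6 to 100.2 in the crypt and 300.3 to 628.5 at the tip, while *Egr1* reaches its highest value, 203.5, in the crypt of mouse 4.

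Between the crypt and the mid-villus, *Ier2* was lower and *Klf6* higher, and the other 7 genes did not pass. Of the 9 genes, 1 passed as higher and 1 as lower, where 40.7% of all genes passed in either direction (16.7% higher, 24% lower). *Ier2* fell by 0.89 on the log2 scale (SE 0.34, adjusted p = 0.0438, edgeR), from 38.1, 77.4, 56.9, 135.0 and 36.3 CPM in the crypt to 27.8, 33.8, 43.3, 52.0 and 33.1, lower in 5 of 5 mice. The call was lost in 6 of 18 alternatives, among them without mouse 1 (-1.03, adjusted p = 0.0514), mouse 2 (-0.90, 0.110), mouse 3 (-0.98, 0.0848) or mouse 4 (-0.62, 0.107).

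*Klf6* was already higher in the mid-villus, at 138.0, 81.4, 165.2, 127.9 and 124.3 CPM (0.76 ± 0.28, adjusted p = 0.0328, edgeR). The call was lost in 9 of 18 alternatives, with DESeq2 (0.51, adjusted p = 0.0795), with its size factors (0.50, 0.113), scaled by total UMIs (0.64, 0.117), with no filter on low counts (0.88, 0.0715) and with at most 15% mitochondrial UMIs (0.80, 0.0827). It was also not called without mouse 1 (0.67, adjusted p = 0.115), mouse 4 (0.64, 0.0880) or mouse 5 (0.77, 0.0587), nor in pairs alone (0.19, 0.797). *Egr1* stood at 24.0, 74.4, 44.6, 203.5 and 16.5 CPM in the crypt and at 7.49, 20.0, 14.9, 88.9 and 0 in the mid-villus. Each mouse was lower in the mid-villus, and the groups overlapped because mouse 4 was high in both. The difference was -1.52 ± 0.63 (adjusted p = 0.0599, edgeR). It was past the threshold with mouse as a block (-1.54, adjusted p = 5.09e-07), without mouse 4 (-1.66, 0.00526) and in pairs alone (-2.32, 0.000371). On single plates *Egr1* was lower in the mid-villus on 35 of 40 plates and higher on 2. With mouse as a block, *Junb* was also higher in the mid-villus (0.64, adjusted p = 0.00888, against 0.62 and 0.185 without it).

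From mid-villus to tip, *Jun*, *Atf3* and *Klf6* rose and no gene of the 9 passed as lower, where 12.3% of all genes passed (6.05% higher, 6.28% lower), 909 genes, or 1982 with mouse as a block. *Jun* went from 41.7, 42.6, 67.9, 84.6 and 99.4 CPM to the tip values above, a difference of 2.23 ± 0.45 (4.68-fold, adjusted p = 0.00274, edgeR). *Atf3* went from 10.7, 20.0, 16.4, 36.9 and 0 by 3.36 ± 0.67 (10.2-fold, adjusted p = 0.00234), and *Klf6* by 1.79 ± 0.28 (3.46-fold, adjusted p = 0.000316). The lowest tip value of *Jun*, 178.8 in mouse 5, lay above its highest mid-villus value, 99.4 in the same mouse. Between crypt and mid-villus *Jun* had differed by 0.30 (adjusted p = 0.629) and *Atf3* by -0.54 (0.536), and the 2 intervals were not tested against each other. *Atf3* was not called when zones were set by a mean z score (1.95, adjusted p = 0.113), nor *Klf6* in pairs alone (1.31, 0.0520).

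*Fos* (0.81 ± 0.40, adjusted p = 0.198), *Fosb* (1.72 ± 0.62, 0.0747) and *Junb* (0.58, 0.352) did not pass from mid-villus to tip without the block. With mouse as a block they did (0.82, adjusted p = 0.0147, 1.89, 5.99e-06, and 0.62, 0.0489). *Fosb* also passed without mouse 4 (2.38, adjusted p = 0.00687). *Jund* (0.48, 0.481), *Ier2* (0.59, 0.349) and *Egr1* (0.31, 0.855) did not pass in either fit. The median mitochondrial share of the wells, 4.4% to 22.3% over mice and zones, differed more between mice than between zones.

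The same step was measured in enterocyte-like cells sorted as single cells, 282 of the mid-villus and 333 of the tip. These cells met the limits used for clumps and held at most 0.5% secretory and immune marker UMIs. They are a stricter part of the 2507 enterocyte-like cells compared by type below. Here the tip stood above the mid-villus for 5 of the 9 genes, *Jun*, *Fos*, *Atf3*, *Egr1* and *Klf6*, where 22.5% of 4527 genes passed (8.17% higher, 14.3% lower, 4 mice). *Jun* stood at 74.8, 39.0, 17.8 and 99.9 CPM in the mid-villus cells of mice 1 to 4 and at 564.2, 676.4, 357.9 and 466.9 in their tip cells (3.18 ± 0.54, 9.04-fold, adjusted p = 6.38e-05, edgeR). *Fos* went from 89.8, 105.9, 106.8 and 172.6 to 354.0, 562.3, 402.6 and 569.9 (1.96 ± 0.51, 3.88-fold, adjusted p = 0.00621). For both genes the lowest tip value lay well above the highest mid-villus value.

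*Atf3* went from 15.0, 11.2, 5.94 and 9.08 to 226.8, 268.9, 119.3 and 137.3, the largest fold of the 9 here (4.29 ± 0.72, 19.6-fold, adjusted p = 6.08e-05, edgeR). *Klf6* went from 164.6, 167.3, 71.2 and 163.5 to 636.1, 888.3, 596.5 and 679.7 (2.32 ± 0.50, 4.98-fold, adjusted p = 0.00125). The calls of *Jun*, *Fos*, *Atf3* and *Klf6* held under every alternative tried. On plates with both zones, *Fos* was higher at the tip on 16 of 16 plates and *Jun* on 15, with *Jun* equal on the last.

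*Egr1* rested on few molecules, 0, 1, 0 and 3 UMIs in the mid-villus cells and 4, 9, 4 and 6 in the tip cells of mice 1 to 4. Its difference was 2.86 ± 0.83 (adjusted p = 0.0123, edgeR), and it was not called without mouse 2 (2.76, 0.0593) or mouse 3 (2.60, 0.0587). *Junb* (1.31 ± 0.54, adjusted p = 0.0690), *Jund* (0.83, 0.231) and *Fosb* (1.94 ± 0.95, 0.128) passed only with the block or under other alternatives (block 1.30, 0.00545, 0.91, 0.0414, and 1.83, 0.0456). *Junb* also passed without single-cell mouse 2 (1.97, 0.0410) and without pair mouse 1 (1.57, 0.0357), 3 (1.56, 0.0379), 4 (1.30, 0.0249) or 5 (1.53, 0.0378), which share its fit, and *Fosb* without pair mouse 1 (2.19, 0.0493). *Ier2* differed by 0.95 (0.274).

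**Figure D2:**
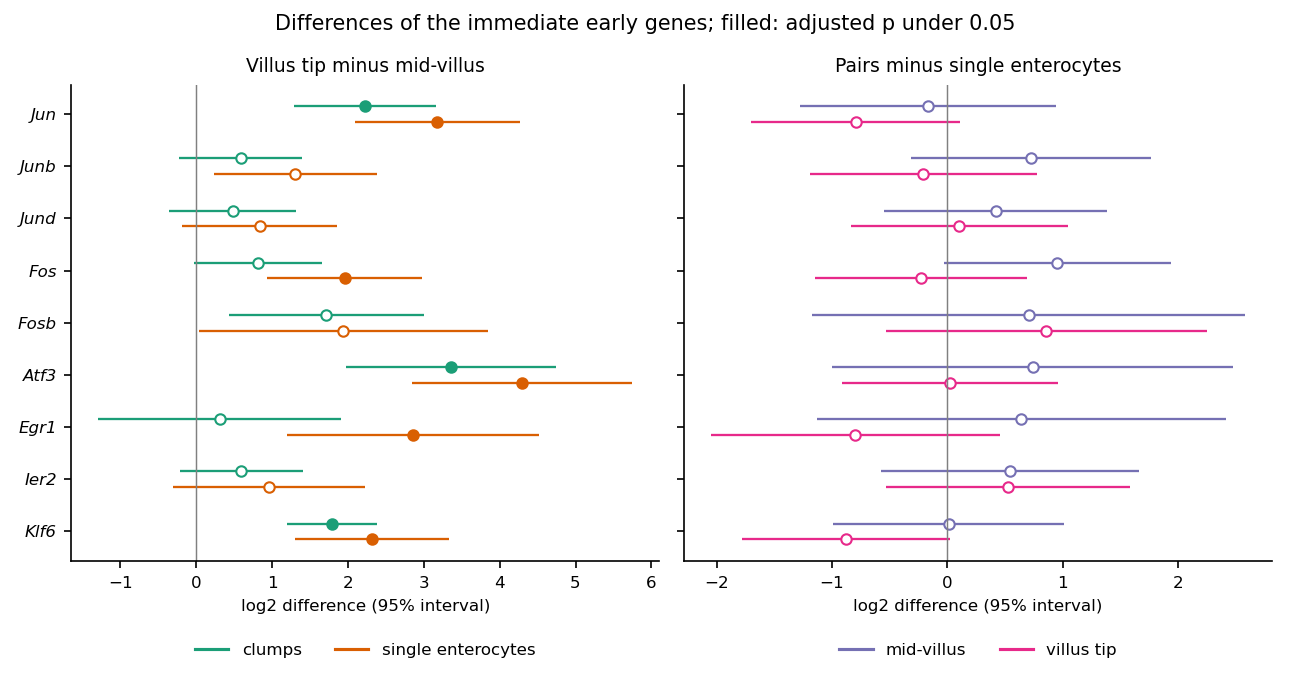
Log2 differences with 95% intervals (horizontal axes) of the 9 genes. The left panel shows villus tip minus mid-villus in clumps and in single enterocytes, the right panel pairs minus single enterocytes in each zone, and filled points have an adjusted p under 0.05. *Jun*, *Atf3* and *Klf6* lie above 0 in both sets on the left, and no point on the right is filled.

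Pairs and single enterocyte-like cells of the same zone were set against each other to see whether the level of these genes differed with the preparation. None of the 9 genes passed in the mid-villus or at the tip, where 0.53% of 4527 genes passed in each zone. The intervals were wide. In the mid-villus the difference, pairs minus single cells, was -0.17 for *Jun* (95% interval -1.28 to 0.94), 0.01 for *Klf6* (-0.99 to 1.01), 0.74 for *Atf3* (-1.0 to 2.48) and 0.72 for *Junb* (-0.32 to 1.76). Each of these intervals held 0 and reached at least 0.94 on the log2 scale in 1 or both directions.

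*Fos* came closest in the mid-villus. It stood at 246.9, 249.6, 277.3, 256.5 and 50.2 CPM in the pairs of mice 1 to 5 and at 89.8, 105.9, 106.8 and 172.6 in single cells. The pairs of 4 mice lay above all single-cell values, and those of mouse 5, with 1 *Fos* UMI, lay below them. The difference was 0.96 ± 0.49 (-0.03 to 1.94, adjusted p = 0.900). At the tip the difference of *Fos* was -0.23 (-1.15 to 0.69), that of *Jun* -0.80 (-1.70 to 0.11), that of *Klf6* -0.88 (-1.78 to 0.03), that of *Atf3* 0.02 (-0.92 to 0.96) and that of *Egr1* -0.80 (-2.05 to 0.45). *Jun* at the tip was 308.4, 528.1, 278.0, 0 and 57.4 in pairs against 564.2, 676.4, 357.9 and 466.9 in single cells, and the low values came from mice 4 and 5, whose tip pairs were only 5 and 9 wells.

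Other measures differed between the preparations beside these values. The median mitochondrial share was 5.4% to 21.6% in mid-villus and tip pairs and 22.6% to 26.5% in single enterocyte-like cells. With wells of over 15% mitochondrial UMIs on both sides, a limit set after the values were seen, *Jun* at the tip differed by -0.28, *Klf6* by -0.96 and *Fos* in the mid-villus by 0.94, and none of the genes that could be tested was called. The summed level of the blood and plasma markers was at most 16.3 and 21.0 CPM in mid-villus and tip pairs (7 markers, 5 of them at 0 in each) and ranged over 10.8 to 1520 and 4.92 to 1570 in single enterocyte-like cells (8 markers, 3 and 1 at 0). The 22 immune markers were at most 47.3 and 43.3 in the pairs (9 and 11 at 0) and ranged over 8.5 to 195 and 6.42 to 308 in the single cells (9 and 6 at 0). The part of these cells in the differences was not tested. Scaling by total UMIs moved the median of all genes from 0.02 to 0.53 in the mid-villus and from 0.14 to 0.90 at the tip.

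The tip minus mid-villus change was smaller in pairs than in single cells by the fitted value for 8 of the 9 genes, but no gene passed the test of that difference, neither of the 9 nor of all 4527 genes (0% called by edgeR, 120 genes at an unadjusted p under 0.05, and by DESeq2 0 called and 51 at an unadjusted p under 0.05). The difference between the changes was -0.63 for *Jun* (-2.06 to 0.80), -1.18 for *Fos* (-2.53 to 0.16), -0.72 for *Atf3*, -0.89 for *Klf6* (-2.23 to 0.46) and -1.44 for *Egr1* (-3.60 to 0.72).

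**Figure D3:**
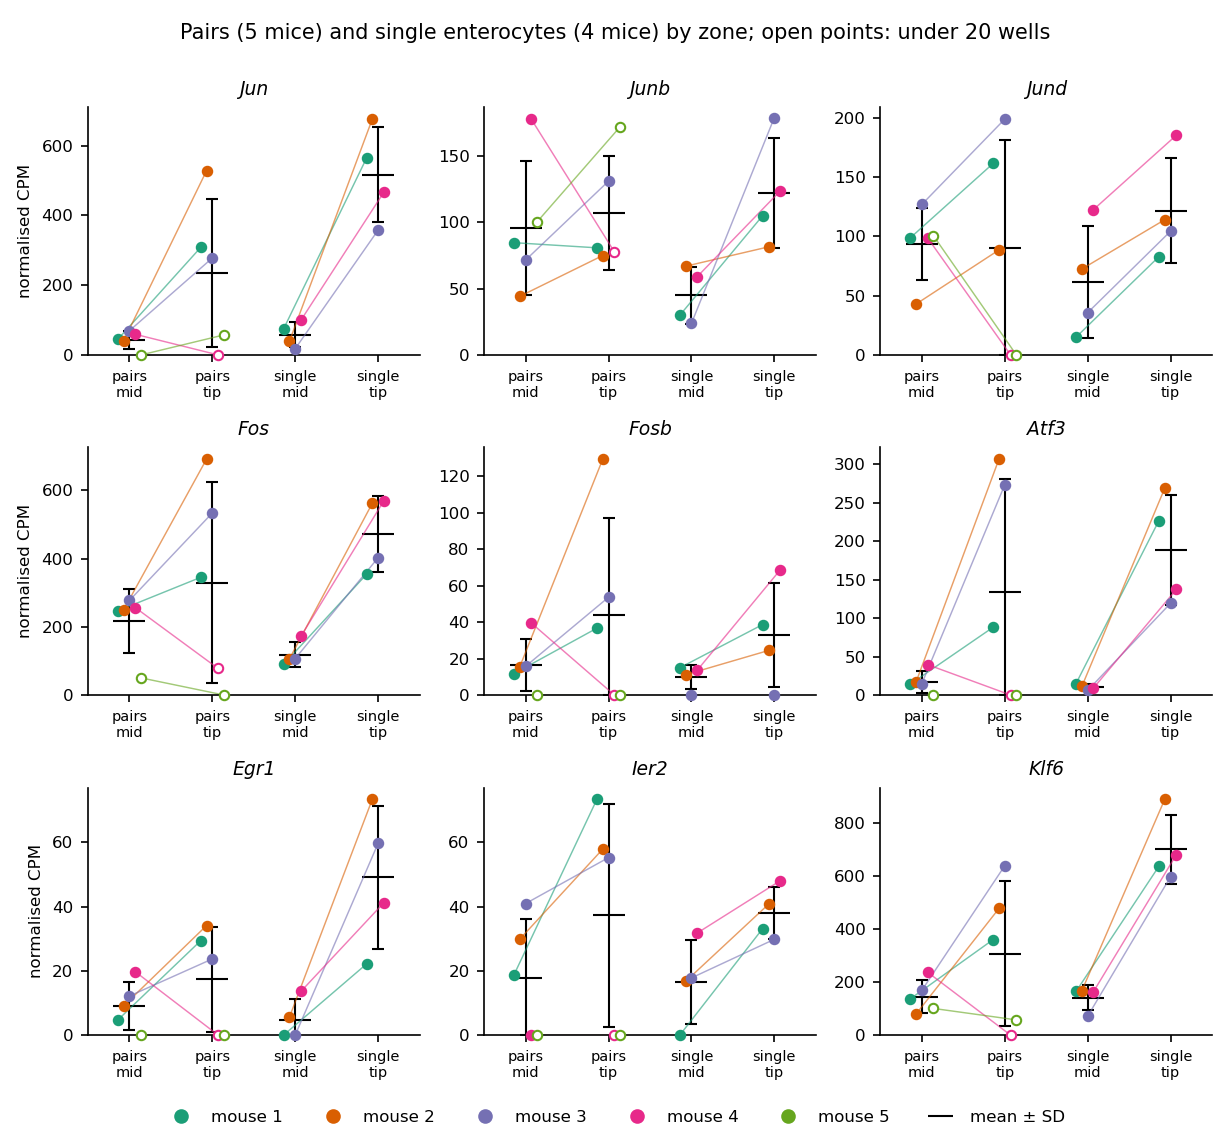
Normalised CPM (vertical axes, linear, from 0) of each gene in pairs and in single enterocyte-like cells of the mid-villus and tip, 1 point per mouse with lines within a mouse, the mean and SD as bars and open points for sums of under 20 wells. Single tip cells carry *Jun* at 357.9 to 676.4 in 4 of 4 mice.

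In crypt clumps, larger clumps were set against pairs to see whether clump size moved with these genes. None of the 9 passed and none of 7394 genes did (0% called by edgeR, 220 genes at an unadjusted p under 0.05, by DESeq2 0 and 102, and 36 called with mouse as a block, none of them among the 9). *Jun* differed by 0.66 (-0.50 to 1.82), *Egr1* by 0.71 (-0.78 to 2.21) and *Klf6* by -0.56 (-1.24 to 0.13), larger clumps minus pairs. The larger clumps of mouse 4 held *Egr1* at 208.3 and *Fos* at 339.2 CPM, against 28.7 and 20.0 for *Egr1* in mice 1 and 5. For *Egr1* the mice differed more from each other than the 2 sizes did.

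Other genes of the pathway were read from lists drawn up with earlier results of these data known, with up to 3 named in a direction. The counts are therefore a description and no independent support. Genes of these lists were not removed from the landmarks that placed the wells. From crypt to tip in clumps, 4 of 4 measured ligands and receptors of the EGF family rose, against 22.3% of all genes (list median 2.07, median of all genes -0.15 on the log2 scale). They included *Egfr*, the EGF receptor (2.67), *Erbb3*, its relative (1.48), and *Hbegf*, a ligand that is itself induced quickly (3.04). Of 15 other immediate early genes 7 rose and 1 fell, among them *Klf4* (4.37) and *Rhob* (2.74), with *Klf5*, a Krüppel-like factor of dividing crypt cells, lower (-1.19). Of 9 feedback inhibitors 6 rose, including the ERK phosphatase *Dusp6* (3.90) and *Errfi1*, an inhibitor of the EGF receptor (3.52). Of 7 other AP-1 and related factors 2 rose, *Fosl2* (2.50) and *Mafk* (1.96).

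Of 18 genes of the MAP kinase cascade 8 rose, *Mapk8*, which encodes a JNK kinase, most (2.48), and 1 fell, *Mapk9* (-1.89), where 22.3% of all genes rose and 30.8% fell. Heat shock genes, known to respond to cell stress, were lower at the tip in 7 of 11 cases, against 30.8% of all genes, such as the mitochondrial chaperones *Hspd1* (-3.89) and *Hspe1* (-3.10), and *Dnajb1* higher (1.42). From mid-villus to tip in clumps, 3 of 4 EGF family genes, 7 of 15 other immediate early genes and 1 of 9 feedback inhibitors rose, against 6.05% of all genes. In single enterocyte-like cells the same step raised 2 of 4 EGF family genes (*Egfr* 4.11, *Hbegf* 2.75), 5 of 12 other immediate early genes, 3 of 5 feedback inhibitors (*Errfi1* 1.86, *Dusp6* 1.76, *Zfp36* 1.73) and 2 of 4 AP-1 related genes, while 2 of 9 heat shock genes rose and 2 fell, where 8.17% of all genes rose and 14.3% fell. These adjusted p-values were all under 0.05 over all genes tested, in edgeR's quasi-likelihood test.

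Single cells were then compared by type. Of 5199 cells kept, 2507 were enterocyte-like, 213 goblet-like, 241 enteroendocrine-like, 181 tuft-like (in 3 mice with at least 5 cells) and 1619 immune-like (3 mice), by clusters made without the 9 genes. Each class led in its own marker list, with goblet markers at 139000 to 240000 CPM in goblet-like cells and 202 to 734 in enterocyte-like cells, and tuft markers at 15500 to 22400 in tuft-like cells and 27.0 to 56.0 in enterocyte-like cells. A cluster of 393 cells led by *Cd74* and H2 genes was kept out of the types. Sorting gates differed between types, since enteroendocrine-like and tuft-like cells came mainly from CD24 plates of mouse 2. The median mitochondrial share was 31.8% to 33.5% in enterocyte-like cells, 12.1% to 15.1% in goblet-like, 9.69% to 11.5% in enteroendocrine-like, at most 20.8% in tuft-like and 8.77% to 10.6% in immune-like cells, and its part in the differences was not tested.

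Tuft-like cells, the chemosensory cells of the epithelium, carried almost no *Fos*, *Fosb*, *Atf3* or *Egr1*. *Fos* stood at 0, 12.0 and 0 normalised CPM in the tuft-like cells of mice 1 to 3, 4 UMIs in all, against 558.1, 250.1, 195.1 and 391.8 in the enterocyte-like cells of mice 1 to 4. The groups were far apart, and the difference was -5.27 ± 0.78 on the log2 scale (adjusted p = 2.12e-06, edgeR), a call that held under every alternative tried. The sums held 19, 156 and 6 cells, so the limit of at least 20 cells left mouse 2 alone, assumed to vary like the other types. A UMI of *Fos* was found in 2.21% of tuft-like cells (median depth 2215 UMIs) and in 29.3% of enterocyte-like cells (2853 UMIs), or in 0.947% of 175 and 7.34% of 2463 cells thinned to 500 UMIs, which left out 6 and 44 shallower cells. In plates whose label names no gate, *Fos* had 0 of 53552 UMIs in tuft-like cells of mouse 1 and 0 of 93295 in those of mouse 2, while enterocyte-like cells there held 302 of 2306960 and 7 of 112965.

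In tuft-like cells 5 of the 8 genes tested were lower and none higher, where 25.6% of 4590 genes passed (10.7% higher, 14.9% lower). *Jun* was lower by -3.86 ± 0.78 (adjusted p = 0.000199, edgeR) and *Klf6* by -2.32 ± 0.66 (0.00687). *Atf3* had 1 UMI and *Egr1* 2 UMIs in 410526, so their ratios are given per total UMIs, 13.4 times more *Atf3* in enterocyte-like cells of the same mice (95% counting interval 2.37 to 531) and 3.08 times more *Egr1* (0.828 to 25.9). *Fosb* had 0 UMIs in tuft-like cells and was at least 1.24-fold lower, taking 3 counts over the group as the limit that 0 allows. *Egr1* was not called without mouse 1 (-2.35, adjusted p = 0.0799) or mouse 2 (-6.72, 0.221), nor *Klf6* without mouse 2 (-2.04, 0.217), and scaled by total UMIs neither was (-1.70, 0.135, and -0.91, 0.231). With at least 20 cells per sum, which leaves mouse 2 alone, *Atf3* (-4.60, 0.0611) and *Egr1* (-2.57, 0.0964) were not called. *Junb* (-0.34), *Jund* (0.45) and *Ier2* (0.12) were not called, and *Jund* stood at 36.4 to 177.2 CPM in the 3 mice, so the low levels were not shared by all of the 9.

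Goblet-like and enteroendocrine-like cells carried more *Egr1* than enterocyte-like cells. *Egr1* stood at 143.9, 185.4, 91.0 and 90.5 CPM in goblet-like cells and at 247.1, 137.7, 99.6 and 172.7 in enteroendocrine-like cells of mice 1 to 4, against 79.2, 39.1, 13.9 and 32.0 in enterocyte-like cells. All 8 values of these types lay above all 4 enterocyte-like values. The differences were 1.68 ± 0.49 (adjusted p = 0.00993) and 1.98 ± 0.51 (0.00248, edgeR). The enteroendocrine call held under every alternative tried, but 3 of its 4 sums held only 10, 9 and 6 cells, and the limit of at least 20 cells left mouse 2 alone (216 cells), assumed to vary like the other types. By contrast, the goblet call was lost without mouse 2 (1.52, 0.158), mouse 3 (1.66, 0.0509) or mouse 4 (1.60, 0.0792). An *Egr1* UMI was found in 18.3% of goblet-like, 20.3% of enteroendocrine-like, 3.87% of enterocyte-like and 1.105% of tuft-like cells (median depths 1991, 1829, 2853 and 2215 UMIs), and after thinning to 500 UMIs, without 6, 7, 44 and 6 shallower cells, in 4.29%, 7.76%, 0.797% and 0.170%.

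In goblet-like cells *Egr1* was the only gene called of the 8 tested, where 21.9% of all genes passed (7.21% higher, 14.7% lower). *Fos* was at 415.7, 312.2, 357.8 and 316.6 CPM there and differed by 0.01. *Jun* was at 127.9, 165.8, 66.7 and 90.5 against 594.9, 257.1, 82.0 and 249.1 (-1.39 ± 0.55, adjusted p = 0.0664), lower in 4 of 4 mice and called with mouse as a block (-1.22, 0.0128). *Ier2* differed by 1.08 (0.154), *Klf6* by -0.34, *Atf3* by 0.24, *Jund* by 0.48 and *Junb* by 0.11.

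In enteroendocrine-like cells 1 gene was higher and 3 were lower, where 33.8% of all genes passed (11.9% higher, 21.9% lower). *Klf6* was at 61.8, 65.8, 33.2 and 86.3 CPM against 696.2, 399.6, 159.9 and 338.2 (-2.67 ± 0.64, adjusted p = 0.00129, edgeR), and was not called without mouse 2 (-2.62, 0.0555). *Atf3* was seen only in mouse 2, 13 UMIs, and was lower by -2.15 ± 0.81 (0.0372), a call lost in 7 of 12 alternatives, among them DESeq2 (-2.67, 0.0809), scaling by total UMIs (-0.40, 0.662) and leaving out mouse 1 (-1.05, 0.199). *Jun* was lower by -1.61 ± 0.58 (0.0295), but at 0.18 when scaled by total UMIs. Of 15 alternatives, 9 lost the call and 2 others turned its direction. It was not called with DESeq2 (-1.66, 0.0711), nor without mouse 1 (-1.01, 0.152), mouse 2 (-2.03, 0.121), mouse 3 (-1.66, 0.0570) or mouse 4 (-1.64, 0.0662). *Fos*, at 185.3, 222.0, 199.1 and 172.7, differed by -0.80 (0.215).

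Immune-like cells, led by *Ccl5*, *Gzma* and the T cell co-receptor gene *Cd8a*, were low in *Jun*, *Fos*, *Atf3* and *Klf6* but not in *Junb*. Of the 8 genes 4 were lower and none higher, where 60.5% of all genes passed (33.2% higher, 27.3% lower). *Fos* was at 37.8, 66.8 and 25.2 CPM in mice 2 to 4 (-2.97 ± 0.54, adjusted p = 1.74e-05, edgeR) and *Jun* at 20.9, 37.3 and 7.20 (-3.66 ± 0.63, 8.39e-06). *Atf3* was lower by -4.70 ± 0.84 (1.54e-05), and *Klf6* by -2.35 ± 0.59 (0.000961), not called without mouse 2 (-2.05, 0.0517). *Fosb* had 1 UMI in 1619845, a ratio of 17.3 in favour of enterocyte-like cells (2.98 to 694).

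*Junb* was highest in immune-like cells, at 134.2, 144.6 and 158.3 CPM with little spread, and the enterocyte-like values reached 112.4 at most. The difference was 0.86 (adjusted p = 0.0901), past the threshold with mouse as a block (1.01, 0.00999). *Ier2* was higher by 1.06 (0.0568), called with the block (1.07, 0.00723) and without mouse 1 (0.95, 0.0446). *Egr1* differed by -0.12 and turned to 1.36 (0.00800) when scaled by total UMIs, and *Jund* differed by 0.47.

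**Figure D4:**
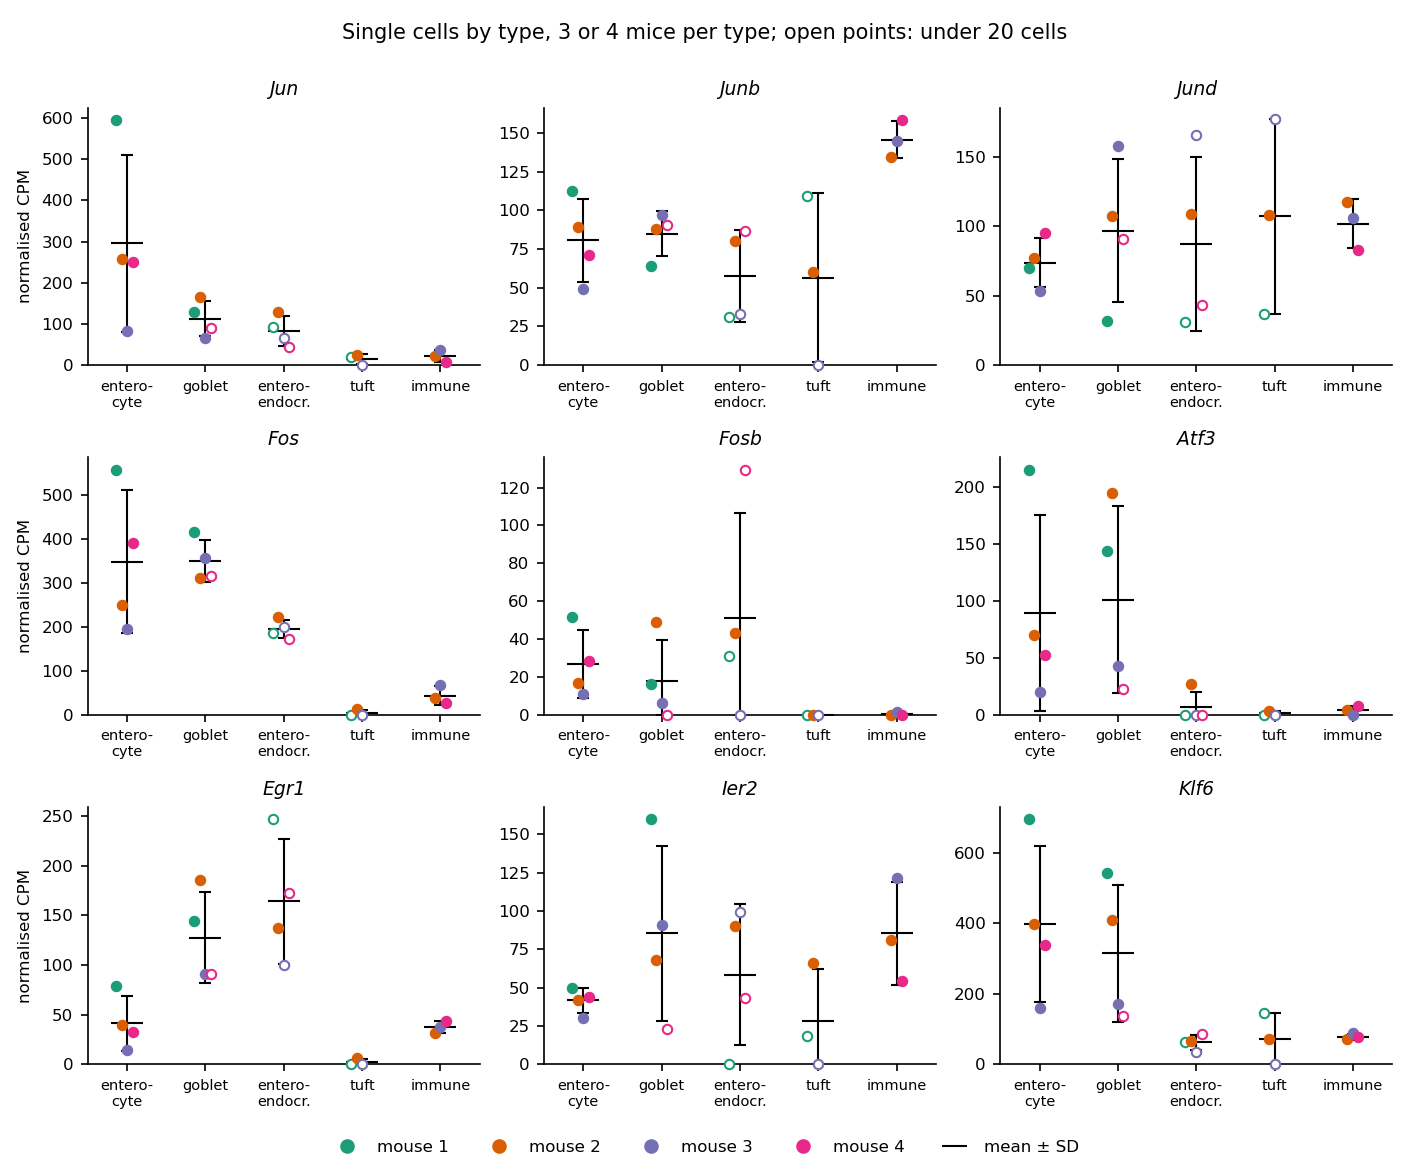
Normalised CPM (vertical axes, linear, from 0) of each gene in the 5 single-cell types, 1 point per mouse (4 mice, 3 for tuft-like and immune-like cells), the mean and SD as bars and open points for sums of under 20 cells. Tuft-like *Fos* lies at 0 to 12.0 and enterocyte-like *Fos* at 195.1 to 558.1, while goblet-like and enteroendocrine-like *Egr1* lies at 90.5 to 247.1, above the enterocyte-like points.

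The order of levels by type differed from gene to gene. For *Fos*, goblet-like cells (350.6 ± 48.0, SD) and enterocyte-like cells (348.8 ± 162) stood together, then enteroendocrine-like (194.8 ± 21.1), immune-like (43.3 ± 21.4) and tuft-like cells (4.00 ± 6.93). For *Klf6*, enterocyte-like (398.5 ± 223) and goblet-like cells (314.7 ± 195) overlapped, and the immune-like (77.7 ± 8.54), tuft-like (72.5 ± 72.8) and enteroendocrine-like cells (61.8 ± 21.9) had lower means and overlapped with each other. The highest tuft-like value, 145.6, also lay above the lowest goblet-like value, 135.7. For *Junb* the order ran from immune-like (145.7 ± 12.1) through goblet-like (84.8 ± 14.4) and enterocyte-like (80.5 ± 26.9) to enteroendocrine-like (57.6 ± 29.7) and tuft-like cells (56.4 ± 54.7), where only the immune-like values stood apart from their nearest neighbour. *Jund* lay between 73.8 and 107.2 on average in all 5 types, with SDs of 17.3 to 70.4, and none of its differences from enterocyte-like cells passed. These differences moved with the scaling, with TMM factors of 0.243 to 0.651 in enterocyte-like cells. Scaled by total UMIs, *Jund* was called higher in enteroendocrine-like (1.89, adjusted p = 0.0181), tuft-like (1.74, 0.0368) and immune-like cells (1.69, 0.00778), *Ier2* was called higher in goblet-like (1.78, 0.0139), enteroendocrine-like (2.30, 0.00215) and immune-like cells (2.34, 0.000177), *Junb* was called higher in immune-like cells (2.23, 0.000170), and *Klf6* was no longer called in enteroendocrine-like (-0.90, 0.214), tuft-like (-0.91, 0.231) or immune-like cells (-0.89, 0.125).

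Enterocyte-like cells differed by zone in these genes, so the types were also set against those of 1 zone. The cells of that zone were also held to the stricter limits used for zones, and the other types were not. Their median mitochondrial share was 23.8%, against 32.7% in all enterocyte-like cells. Zone and these limits therefore cannot be told apart in the change of reference. Against mid-villus enterocyte-like cells alone, an alternative chosen after the values were seen, *Egr1* was 4.41 higher in goblet-like cells (adjusted p = 4.5e-07) and 4.73 higher in enteroendocrine-like cells (1.11e-07). *Fos* became higher in goblet-like cells (1.71, 0.00158), *Ier2* higher in goblet-like (2.31, 0.00397), enteroendocrine-like (2.12, 0.00771) and immune-like cells (2.42, 0.000311), and *Junb* higher in immune-like cells (1.90, 0.000484). The low *Fos* of tuft-like cells kept its call (-3.63, 0.000128), as did that of immune-like cells (-1.13, 0.0280). The low *Jun* of tuft-like (-1.40, 0.141) and immune-like cells (-0.95, 0.106) did not, nor did the low *Egr1* of tuft-like cells (-0.32, 0.874) or the low *Klf6* of tuft-like (-0.75, 0.357), enteroendocrine-like (-0.93, 0.196) and immune-like cells (-0.56, 0.314), and *Jun* of enteroendocrine-like cells turned to 1.08 (0.0931). *Klf6* turned to 1.31 (0.0324) in goblet-like cells, and *Egr1* to 2.75 (0.000353) in immune-like cells. *Atf3* was too scarce to be tested against this reference.

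**Figure D5:**
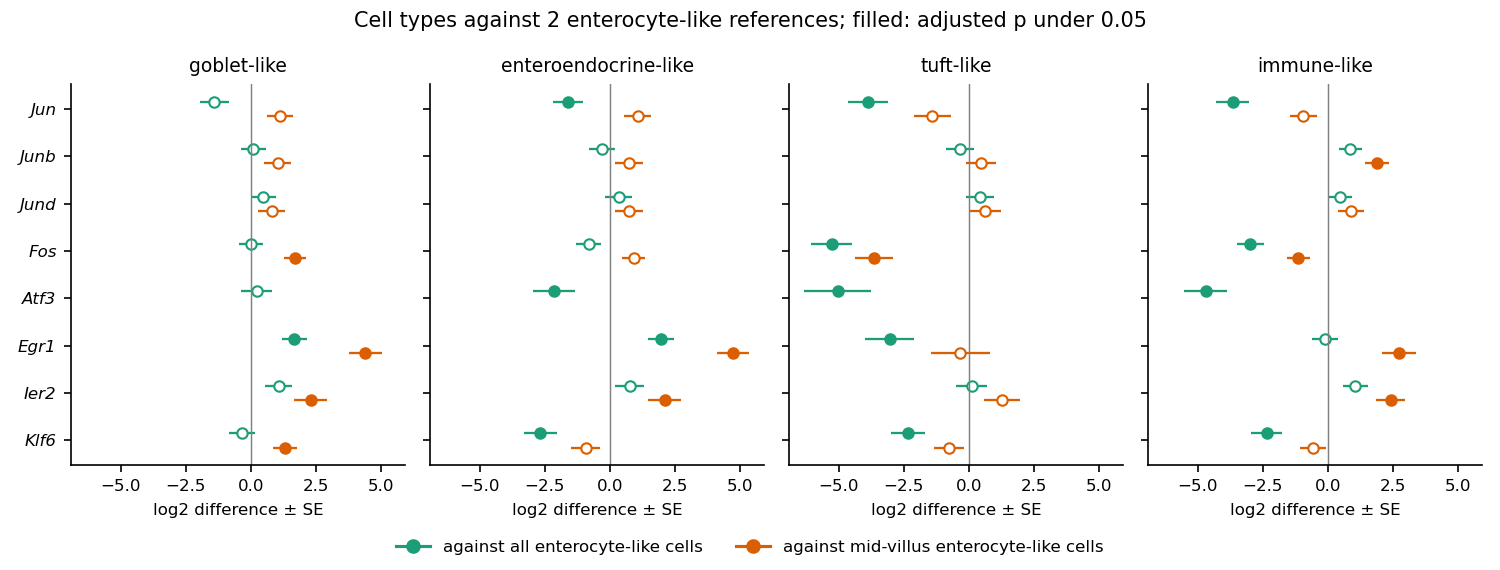
Log2 differences with their SE (horizontal axes) of 8 genes in 4 cell types, filled where the adjusted p is under 0.05. The references are all enterocyte-like cells and those of the mid-villus, which were held to the stricter limits used for zones. Every gene plotted for both references lies higher against the mid-villus cells, and tuft-like *Fos* stays filled below 0 with -5.27 and -3.63.

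The other pathway genes also differed by type. In tuft-like cells 3 of 4 EGF family genes and 4 of 7 feedback inhibitors were lower, against 14.9% of all genes, including *Dusp6* (-3.97), *Dusp5* (-3.92) and the mRNA decay factor *Zfp36* (-2.62), and of 14 other immediate early genes 1 was higher, *Klf9* (2.85), against 10.7% of all genes, and 2 were lower, *Klf4* (-1.78) and *Mcl1* (-1.56). In enteroendocrine-like cells 3 of 4 EGF family genes and 4 of 7 feedback inhibitors were lower, and of 14 other immediate early genes 3 were higher, led by the nuclear receptor *Nr4a2* (5.08), and 4 lower, against 11.9% of all genes higher and 21.9% lower. In immune-like cells *Nr4a2* (5.31) and *Id2* (3.59) were among 6 of 14 other immediate early genes that were higher, and *Klf4* (-5.79) among 5 that were lower. There 4 of 4 EGF family genes were lower (*Egfr* -6.46, *Hbegf* -5.26 and *Erbb3* -5.09 among them), and of 7 feedback inhibitors 4 were lower and 2 higher. In that comparison 33.2% of all genes were higher and 27.3% lower. In goblet-like cells 2 of 4 EGF family genes were higher, the ligand *Areg* (2.35) and *Egfr* (1.74), against 7.21% of all genes, and none of 14 other immediate early genes passed in edgeR's test. These calls were not compared between types.

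The genes whose level followed the sum of the 9 most closely were found by Pearson's correlation of log2(CPM + 5), as a description. Over the 15 clump sums of mouse and zone they were *Hbegf* (0.892), *Epcam*, which encodes an epithelial adhesion protein (0.877), *Pmepa1* (0.858), *Galnt6* (0.857) and *Midn* (0.852), of 2436 genes compared. Over the 18 single-cell sums of mouse and type they were *Agr2* (0.814), 5330417C22Rik (0.810), *Serp1* (0.808), *Syt7* (0.803) and *Trp53inp2* (0.802), of 1916 genes. The sums share mice and differ in depth. Among the 9 in clumps, *Jun* followed *Atf3* (0.855) and *Fosb* (0.844), *Egr1* followed *Ier2* (0.760), and *Jun* and *Egr1* did not move together (0.148).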

How the data were processed

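The authors sequenced MARS-seq plates, aligned reads to GRCm38 with STAR inside zUMIs, and deposited whole-number UMI counts, not normalised, in 1 table of clumps and 1 of single cells, before their background subtraction and filters. The labels name bcl2fastq 2.15.0.4. The well barcodes recur on every plate by design. Clump wells had over 500 UMIs, at least 200 genes and a mitochondrial share up to 30%; the 2% with the lowest landmark share were dropped. Single cells were kept with 150 to 1500 genes, 200 to 7000 UMIs and a mitochondrial share up to 40%. They were clustered with scanpy 1.11.5 (Leiden, resolution 0.1), without the 9 genes, and no doublet caller was run. To be placed in a zone, enterocyte-like cells also had to meet the clump limits and hold at most 0.5% secretory and immune marker UMIs. In mice with at least 5 such cells this left 189 crypt, 282 mid-villus and 333 tip cells of 2507. UMIs were summed per mouse and group (at least 5 wells) and tested with edgeR 4.0.16 (R 4.3.3; TMM, filterByExpr, quasi-likelihood, Benjamini-Hochberg over all genes tested, threshold 0.05, two-sided).

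The 9 genes and all lists were chosen with earlier results of these data known. All 9 are named in every comparison; of each list, at most 3 genes per direction with the largest called change; and the 5 genes most like the sum. Animals pair sums within a table: correlations of deviations were 0.168 to 0.542 in clumps, 0.103 to 0.505 in pairs, 0.0456 to 0.269 in single enterocytes, 0.0101 to 0.543 between cell types and 0.127 to 0.323 between clump sizes. In simulated counts 79%, 82%, 57% and 69% of 4-fold changes and 15%, 13%, 2% and 14% of 2-fold changes were recovered. In this order the comparisons were tip against crypt, pairs against single enterocytes in the mid-villus, goblet-like against enterocyte-like cells and clump sizes. No other comparison was simulated. Counting intervals and limits cover counting error only.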

Additional observations from a re-analysis of the deposited data

Results flagged for a closer look

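Of 108 groups of 4 or 5 mice, 1 mouse stood far from the others in 11, where chance gives about 5%. In crypt clumps mouse 4 was high in *Jun* (115.8 normalised CPM, next 41.66) and *Atf3* (75.13, next 20.83), in crypt pairs it was high in *Junb* (158.8, next 44.31) and *Atf3* (85.51, next 18.18, and 80.09 against 22.07 among pairs not filtered for secretory markers), and in mid-villus clumps in *Egr1* (88.91, next 20.04). Mouse 5 rested on few molecules, with *Fos* at 50.24 in mid-villus pairs (1 UMI, next 246.9), *Ier2* at 16.26 in tip clumps (1 UMI, next 57.84) and *Junb* at 260.1 there (16 UMIs, next 124.9). Single mid-villus enterocyte-like cells of mouse 3 were low in *Klf6* (71.23, 12 UMIs, next 163.5), and enteroendocrine-like cells of mouse 2 were the only ones with *Atf3* (26.72, 13 UMIs, the others at 0).

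Mouse 6, whose 4 plates are labelled h2n and entered no comparison, held the 9 genes at a summed 931.1 CPM in 278 wells. The pairs of mice 1 to 5 held 647.3, 869.9, 911.0, 669.0 and 362.6 and the larger clumps of mice 1, 4 and 5 held 407.1, 1196 and 509.5, all zones together.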

How the results depend on the processing

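Of 30 called differences of the 9 genes, 12 kept their call in every alternative tried; over 508 alternatives the call was lost in 77 and the direction turned in 2. Of 74 differences not called, 49 of 1327 alternatives gave a call, and 3 gave one in the other direction. Directions turned for *Jun* in enteroendocrine-like cells (0.18 scaled by total UMIs, 1.08 against mid-villus enterocyte-like cells), *Egr1* in immune-like cells (1.36 and 2.75) and *Klf6* in goblet-like cells (1.31, mid-villus reference); the cause was not tested.

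Counts of called genes moved over 1.5 times as follows. Tip against mid-villus in clumps gave 909, and 543 with no filter on low counts, 514 with zones by z score, 565 in pairs only and 1982 with mouse as a replicate block. Pairs only gave 2461 for tip against crypt and 1544 for mid-villus against crypt (3918 and 2996 with larger clumps, more wells per sum). Pairs against single enterocytes gave 24 in each zone; in the mid-villus 45 scaled by total UMIs, 52 with no filter, 14 with at least 20 wells per sum and 9 with over 15% mitochondrial UMIs, and at the tip 466, 40 and 8 (total UMIs, no filter, over 15%). Single enterocytes, tip against mid-villus (1017), gave 523 with no filter and 505 with over 15%. With no filter goblet-like gave 1642, enteroendocrine-like 3312, tuft-like 2232 and immune-like 6317, and immune-like gave 5083 with at least 20 cells per sum (1004, 1552, 1176 and 2778 as reported). Clump sizes gave 0, 31 with no filter and 36 with the block. The block made no other call than those given beside the results, and no block joins pairs to single cells, whose mice are not shared.

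Leaving out 1 mouse at a time gave 2482 to 4125 called genes for tip against crypt, 1795 to 3123 for mid-villus against crypt, 366 to 1010 for tip against mid-villus, 9 to 47 and 10 to 48 for pairs against single enterocytes in mid-villus and tip, 399 to 1247 for single enterocytes, 0 to 0 for the difference between the changes, 399 to 1193 for goblet-like, 505 to 1984 for enteroendocrine-like, 336 to 1449 for tuft-like, 1320 to 3785 for immune-like cells and 0 to 1 for clump sizes.

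Scaling by total UMIs moved the median of all genes from -0.31 to 0.40 in goblet-like, -0.24 to 1.21 in enteroendocrine-like, -0.20 to 0.99 in tuft-like and 0.13 to 1.41 in immune-like cells. The split of higher and lower calls went from 1646 and 2272 to 1114 and 2699 for tip against crypt, 446 and 463 to 264 and 652 for tip against mid-villus, 13 and 11 to 35 and 10 (mid-villus) and 458 and 8 (tip) for pairs against single enterocytes, 370 and 647 to 229 and 1269 for single enterocytes, 331 and 673 to 559 and 329 for goblet-like, 548 and 1004 to 1607 and 308 for enteroendocrine-like, 491 and 685 to 1336 and 336 for tuft-like, and 1526 and 1252 to 2538 and 714 for immune-like cells. Mice were few, as were UMIs of these genes per tip pair or rare cell. In the comparisons that were simulated, 2% to 15% of 2-fold changes were recovered. Tip pairs and enteroendocrine-like, tuft-like and immune-like cells were not simulated.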
